A study of Danio rerio with 8 samples.

Results

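The 10 genes described here build the black pigment melanin and the melanosome, the organelle in which it is made and stored. They were taken by name from the authors' deposited table of differential expression, where they make up 10 of 32433 rows, and each was among the 18954 rows that the authors tested. They were chosen with the fold changes of this table in view, so their fold changes are given as a description and no test of them is added. By role, 4 are melanin enzymes (tyr, tyrp1b, a further copy listed as TYRP1 (2 of 2), and dct) and 6 are melanosome proteins (the matrix genes pmela and pmelb, the transporter genes oca2, slc24a5 and slc45a2, and the receptor gene gpr143).

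The RNA came from Kaede-positive cells sorted by fluorescence from zebrafish heads at 24 to 26 hours post-fertilization. All embryos carried the transgene Tg(flhBAC:kaede)vu376, in which regulatory sequence of the homeobox gene flh drives the fluorescent protein Kaede. The cells studied are those sorted as Kaede-positive, and how pure the sort was is not known from the values below. Wild-type embryos were not injected (4 libraries), and knockdown embryos received a splice-blocking morpholino, an antisense oligomer, against the T-box gene tbx2b, at 5 ng in 2 libraries and 6 ng in 2 libraries. No group received a control morpholino. Effects of the injection itself and of the knockdown of tbx2b therefore cannot be told apart in any value below. Per the labels the libraries are pairs of technical replicates of 2 RNA samples per group, and since each knockdown sample had its own dose, the effects of dose and sample cannot be told apart.

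Melanin synthesis starts from the amino acid tyrosine. Tyrosinase oxidises it, dopachrome tautomerase and tyrosinase-related protein act on later steps, and the product is laid down on fibrils of the Pmel protein inside the melanosome. Ion transporters in the melanosome membrane set the conditions under which tyrosinase works. In fish embryos these genes are active in melanophores, which arise from the neural crest, and in the retinal pigment epithelium, a layer of the eye.

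The values are FPKM, fragment counts divided by transcript length and library total, with 1 value per gene and group. The spread between libraries and the depth of each library are unknown, so no error can be set beside a value. Values are given for wild-type first and knockdown second, and log2 fold changes are those of the authors' deposited table, knockdown over wild-type. A gene is said to have fallen or risen only if it carries the authors' significance flag, which corresponds to a q (their adjusted p) under 0.05. The pineal genes otx5 and aanat2 were present in both groups. Otx5, a homeobox gene of pineal cells, fell from 16.9 to 7.71 FPKM (q = 0.0287, from the authors' deposited table), and aanat2, an enzyme of melatonin synthesis, measured 3.43 and 3.13 FPKM. The gene tbx2b was at 17.4 and 18.3 FPKM, and a count over the whole gene does not check a splice-blocking morpholino. The reporter's own driver gene, flh, was at 238 and 129 FPKM and was not called (q = 0.0986, from the authors' deposited table), and the part of otx5 and flh in the results below was not tested.

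All 10 genes were lower in the knockdown than in wild-type, and 5 of them fell. The enzymes tyrp1b, TYRP1 (2 of 2) and dct fell between 4.79-fold and 8.67-fold, and the melanosome genes pmelb and oca2 fell 4.24-fold and 5.10-fold. Tyrosinase itself was not called, nor were pmela, slc45a2, slc24a5 and gpr143. The authors called 0.332% of all tested genes lower and 0.106% higher in their deposited table. The members were chosen on this contrast, so nothing is read from their 5 of 10. The 5 called members all had the smallest p that occurs in the authors' deposited table, 5e-05, and therefore its smallest q, 0.0176. In bulk RNA fewer cells of a type and less RNA per cell cannot be told apart, and this holds for every value below.

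**Figure D1:**
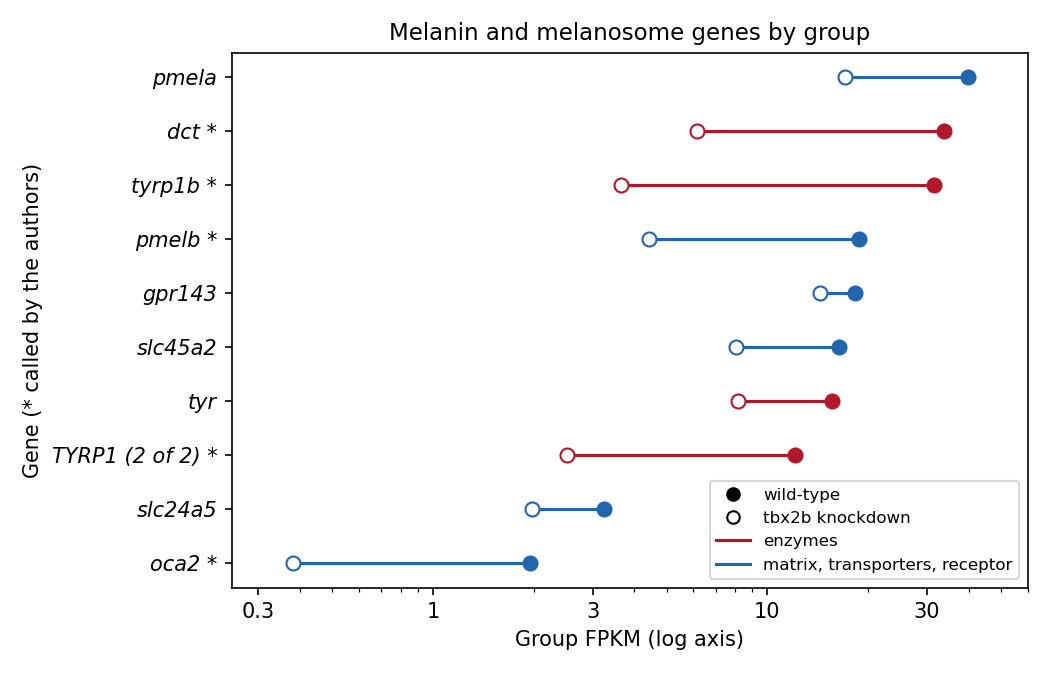
Group FPKM of each gene on a log axis, filled circles for wild-type and open circles for the tbx2b knockdown, 1 value per group, with asterisks on the genes the authors called. All open circles lie to the left of their filled circles, by the longest distance for tyrp1b (31.6 to 3.65 FPKM) and the shortest for gpr143 (18.2 to 14.4 FPKM).

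Tyrosinase (tyr, ENSDARG00000039077, Zv9 chromosome 15, 42572449 to 42591525) catalyses the step that limits the rate of melanin synthesis. Its level was 15.6 FPKM in wild-type cells and 8.16 FPKM in knockdown cells, a 1.91-fold difference. The authors' deposited table lists a log2 fold change of -0.93, p = 0.00155 and q = 0.176. It was the only enzyme of the 4 that was not called.

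The tyrosinase-related proteins stabilise tyrosinase and, in the mouse, oxidise a late intermediate of brown-black melanin. Tyrp1b (ENSDARG00000056151, chromosome 1, 18074731 to 18087943) fell from 31.6 to 3.65 FPKM, the largest fold among the 10 genes and the fourth largest among the 58 genes that were called lower and lay above 0 in both groups. The copy listed as TYRP1 (2 of 2) (ENSDARG00000029204, chromosome 7, 77093112 to 77099079) fell from 12.1 to 2.51 FPKM, a log2 fold change of -2.26. It shares its flanking genes ppp1cbl and RBPMS with tyrp1a in the RefSeq annotation of the GRCz12tu assembly, where tyrp1a also lies on chromosome 7. The level of tyrp1b was 2.62 times that of the chromosome 7 copy in wild-type and 1.45 times in the knockdown. Reads of the copies could be split between them by the authors' counting, which is not described in the sources used here.

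Dopachrome tautomerase (dct, ENSDARG00000006008, chromosome 9, 55311303 to 55336342) converts dopachrome to the carboxylated building block of melanin and is among the earliest genes of the melanophore lineage. It fell from 33.8 to 6.14 FPKM, a log2 fold change of -2.46. In wild-type cells its level was 2.17 times that of tyr, and in knockdown cells it was 0.753 times that of tyr. The ratio of tyrp1b to tyr likewise went from 2.03 to 0.447. The enzymes were thus not lower in one proportion: tyr, the lowest but one of the 4 in wild-type, was the highest of them in the knockdown. No spread is known for these ratios, and their difference was not tested.

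The matrix protein Pmel forms the amyloid fibrils on which melanin is deposited, and zebrafish have a pair of genes for it. Pmelb (ENSDARG00000033760, chromosome 23, 35724085 to 35741880) fell from 18.8 to 4.44 FPKM, a log2 fold change of -2.08. Pmela (ENSDARG00000091298) was the most abundant of the 10 genes in both groups, at 39.9 and 17.1 FPKM. Its log2 fold change of -1.22 was not called (p = 0.0014 and q = 0.166, from the authors' deposited table). The level of pmela was 2.12 times that of pmelb in wild-type and 3.85 times in the knockdown. The row of pmela gives a merged locus (chromosome 11, 2985131 to 3252091) that it shares with 3 other rows, TIMELESS among them, so its position is less exact than that of the other members.

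Oca2, slc45a2 and slc24a5 encode membrane transporters whose loss causes forms of albinism or lighter pigment in fish and people. Oca2 (ENSDARG00000061303, chromosome 6, 37813998 to 37985706), an anion channel that raises melanosome pH, fell from 1.95 to 0.382 FPKM, a log2 fold change of -2.35. It was the least abundant of the 10 genes in both groups, and the error of so low a value cannot be given. Slc45a2 (ENSDARG00000002593, chromosome 21, 18273816 to 18312164), a transporter also needed for melanosome pH, was at 16.4 and 8.06 FPKM. Its log2 fold change of -1.03 came closest to a call among the members that had none (q = 0.067, from the authors' deposited table). Slc24a5 (ENSDARG00000024771, chromosome 18, 4644225 to 4660255), the sodium-calcium exchanger altered in the golden mutant, was at 3.26 and 1.98 FPKM with a log2 fold change of -0.72 (q = 0.729, from the authors' deposited table).

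Gpr143 (ENSDARG00000034572, chromosome 9, 57062181 to 57096701) encodes a receptor of the melanosome membrane that limits melanosome size in the mouse. It was at 18.2 and 14.4 FPKM, a log2 fold change of -0.34 (p = 0.303, from the authors' deposited table). It was the only member with an unadjusted p above 0.05, against 3.76% of all tested genes with a p under 0.05 in the lower direction. In abundance among the 10, gpr143 was the fifth in wild-type and the second in the knockdown. Its level was 0.577 times that of tyrp1b in wild-type cells and 3.95 times in knockdown cells.

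Set side by side, the 4 enzymes had a median log2 fold change of -2.36 and the 6 melanosome genes one of -1.13. The median was -1.65 over all 10 genes and -0.03 over the 18800 tested genes above 0 in both groups. The ranges overlap: the enzymes ran from -3.12 to -0.93, and the melanosome genes from -2.35 to -0.34. The 5 members without a call ranged from -1.22 to -0.34. Summed over each set, the enzymes measured 93.0 FPKM in wild-type cells and 20.5 FPKM in knockdown cells, and the melanosome genes 98.6 and 46.3 FPKM. The enzymes' share of the members' summed FPKM was 48.5% in wild-type and 30.6% in the knockdown. The direction of every member was the same when each group was rescaled to its FPKM sum (TPM), which adds 0.106 to every log2 fold change.

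The order of the levels in wild-type was pmela, dct, tyrp1b, pmelb, gpr143, slc45a2, tyr, TYRP1 (2 of 2), slc24a5 and oca2. In the knockdown it was pmela, gpr143, tyr, slc45a2, dct, pmelb, tyrp1b, TYRP1 (2 of 2), slc24a5 and oca2. Pmela and the last 3 genes held the same places in both groups. Without values per library it cannot be said which neighbours in either order differ beyond their spread. Pmela, the most abundant, was expressed above 88.0% of the tested genes in wild-type cells, and oca2 above 28.3%.

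**Figure D2:**
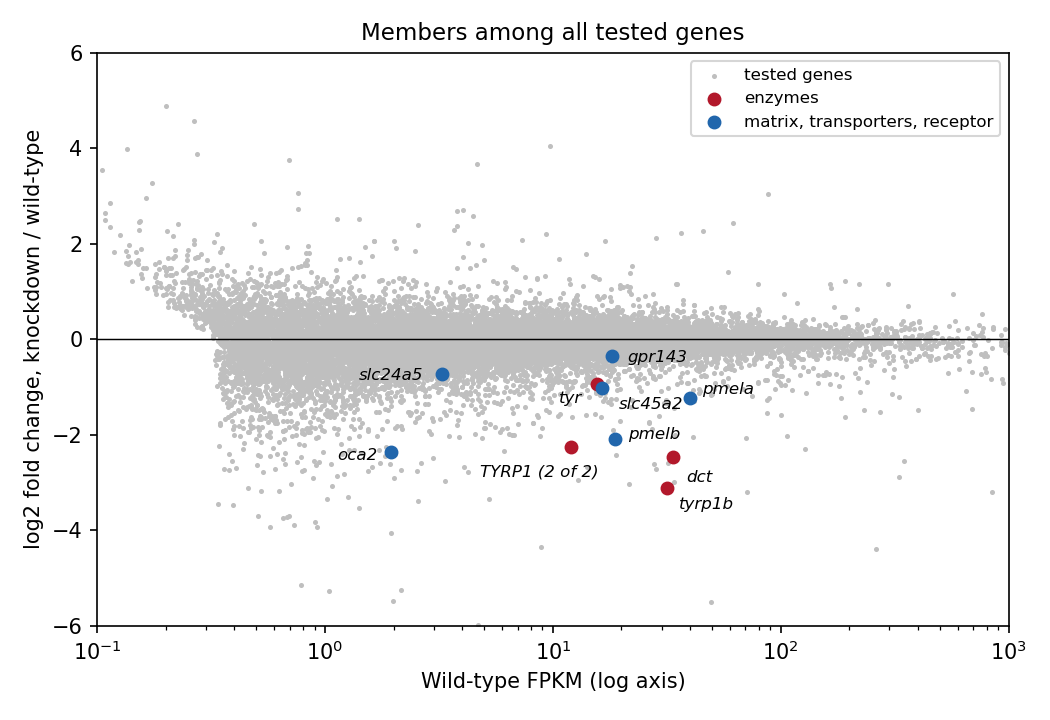
Log2 fold change against wild-type FPKM (log axis) for the tested genes at 0.1 FPKM or more in wild-type and above 0 in the knockdown (grey, 1 point per gene), with the enzymes in red and the other members in blue. Tyrp1b (-3.12) and dct (-2.46) lie well below the grey band at about the same wild-type level as pmela (-1.22), and gpr143 (-0.34) lies within it; the axes leave out a few genes of higher level or larger fold change.

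In both groups 15109 tested genes reached 1 FPKM. Among these, 5% had a log2 fold change under -0.61, and 9 of the 10 members lay below that value and gpr143 above it; oca2, at 0.382 FPKM in the knockdown, is set against these genes without being one of them. Tyrp1b was lower than all but 0.0265% of these genes and slc24a5 than all but 3.53%, while 14.0% of them had a lower log2 fold change than gpr143. Among the 51 called lower genes outside the set with 1 FPKM or more in wild-type and above 0 in the knockdown, the 6 whose log2 fold change lay nearest to the members' median of -1.65 were rdh5 (-1.63), pou5f1 (-1.62), PGBD4 (5 of 7) (-1.70), rergla (-1.72), KLF10 (-1.72) and gngt2a (-1.58). This likeness rests on 1 contrast between group values. Rdh5, a retinol dehydrogenase, belongs to the visual cycle, and gngt2a encodes a transducin subunit of cones.

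The 10 genes lie on 9 chromosomes, with dct and gpr143 both on chromosome 9. The 3 nearest tested genes on each side of every member that reached 1 FPKM in either group gave 57 flanking genes, since no such gene lay beyond TYRP1 (2 of 2) on the far side of chromosome 7. Rows that overlap a member were not counted as flanking, so for pmela the rows that share its merged locus are left out. None of the 57 was called in either direction, and of all tested genes 0.332% were called lower and 0.106% higher. No call among 57 genes is thus near the shares over all genes. The authors' deposited table lists a p under 0.05 for 1 of the 57 (sox21b beside dct, log2 fold change of -0.90, q = 0.0618). Among all 18954 tested genes, 712 had such a p in the lower direction and 336 in the higher. The flanking genes had a median log2 fold change of -0.03, with quartiles of -0.19 and 0.16. No flanking gene was as low as the member it flanked. The members were chosen on this contrast, which largely set that outcome in advance, so nothing is read from it. Near tyr lie rab38a, a melanosome traffic gene at 6.55 and 4.18 FPKM, and the protease gene ctsc, at 6.66 and 6.65 FPKM. Around oca2 the flanking genes herc2 and nipa1 had log2 fold changes of -0.19 and -0.03. This count was chosen after the calls were seen and is a description.

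**Figure D3:**
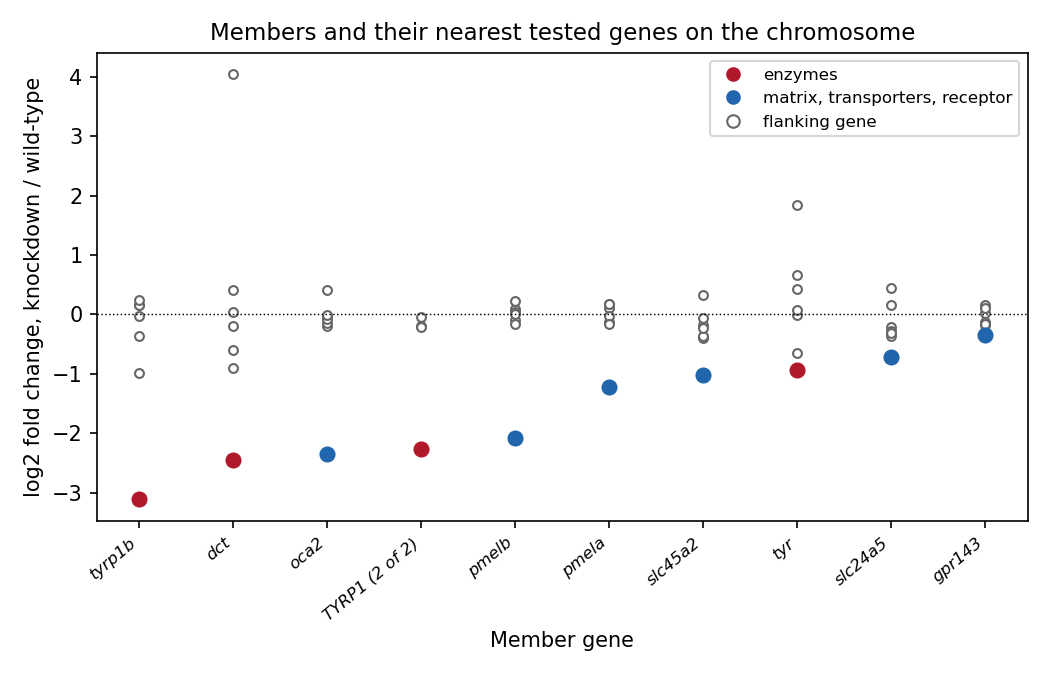
Log2 fold change of each member (filled, enzymes red and other members blue) and of its nearest tested genes on the same chromosome outside the member's locus (open circles). The open circles lie around 0 in each column, with a median of -0.03, and none lies below its member; the highest, at 4.05, is the row of the microRNA dre-mir-92a-2 beside dct.

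Genes that assemble and move melanosomes formed a further list. Of 40 matched genes of melanosome biogenesis and transport 37 were tested, and none was called. Over all tested genes 0.332% were called lower and 0.106% higher, so no call among 37 genes is near those shares. At an unadjusted p under 0.05, 4 of the 37 were lower and 0 higher, against 3.76% of all tested genes in the lower direction. The list median was -0.10, and it turned to 0.0065 when the groups were rescaled to TPM. Its most abundant genes were ap3s2 at 27.6 and 28.8 FPKM, bloc1s6 at 24.4 and 21.4 FPKM, ap3d1 at 17.3 and 16.1 FPKM and bloc1s2 (listed as zgc:111974) at 14.0 and 16.6 FPKM. These belong to the AP-3 and BLOC-1 complexes, which sort cargo to lysosome-related organelles in many cell types. The small GTPase gene rab32a, which serves melanosome traffic, was at 5.18 and 5.51 FPKM.

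The 4 genes of that list with a p under 0.05 were MREG, mlphb, RAB27B and trpm1b. All but trpm1b, which was in the set of markers to be named, were named after their values were seen. MREG, the melanoregulin gene whose mouse counterpart modifies coat colour, was at 2.54 and 0.373 FPKM, a log2 fold change of -2.76 that was not called (q = 0.158, from the authors' deposited table). The melanophilin gene mlphb, which links melanosomes to a myosin motor, was at 7.93 and 3.70 FPKM, and the related mlpha at 0.621 and 0.314 FPKM. RAB27B was at 5.46 and 2.54 FPKM, whereas rab27a, the melanophilin partner in the mouse, was at 6.42 and 5.58 FPKM. Trpm1b, a channel gene of melanophores and retinal bipolar cells, was at 12.1 and 6.03 FPKM, with a locus that overlaps another row.

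Genes that melanosomes share with ordinary lysosomes had list medians near 0 on the log2 scale. The proton pump list (22 tested, none called, no p under 0.05) had a median of 0.14 and a range from -0.29 to 0.29. Its most abundant genes were atp6v0ca at 195 and 219 FPKM, ATP6V0E1 at 109 and 88.8 FPKM, atp6v1g1 at 86.7 and 90.4 FPKM and atp6ap2 at 67.4 and 77.2 FPKM. For 28 tested genes of the general lysosome (none called, no p under 0.05) the median was 0.08. Over all tested genes 0.332% were called lower and 0.106% higher, so no call among 22 or 28 genes is near those shares. An unadjusted p under 0.05 was listed for 712 lower and 336 higher genes among all 18954 tested. The cathepsin gene ctsl1a was at 336 and 309 FPKM, ctsd at 123 and 131 FPKM, psap at 114 and 124 FPKM and ctsba at 83.8 and 84.7 FPKM.

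**Figure D4:**
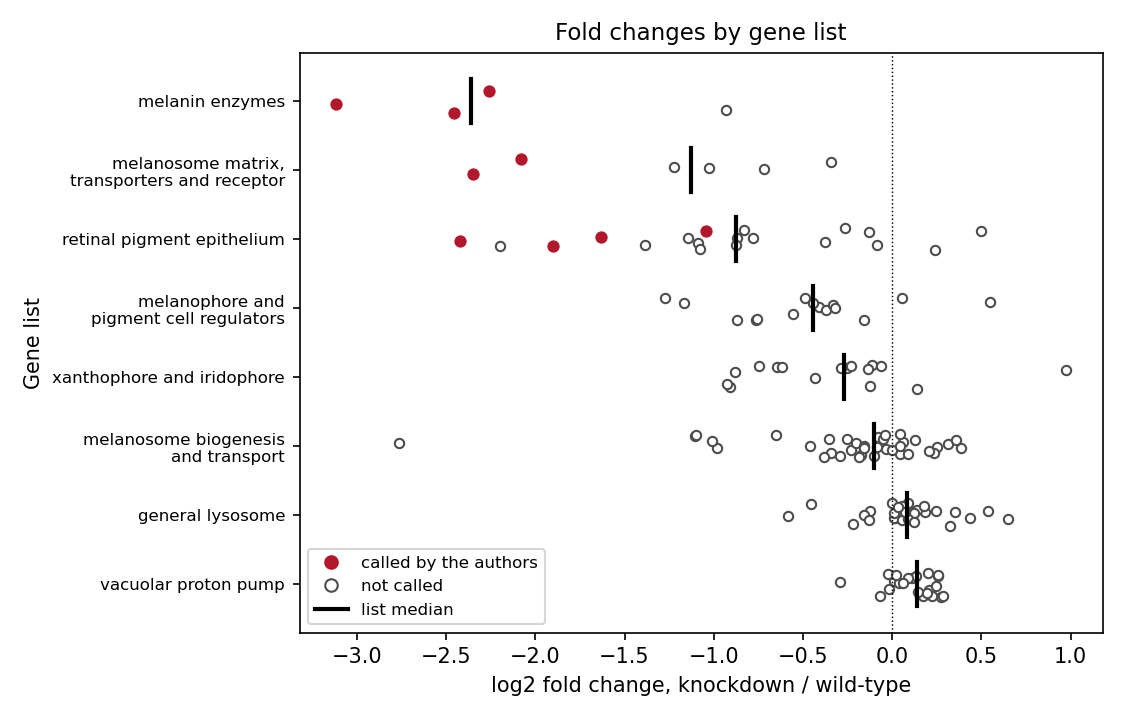
Log2 fold change of each tested gene above 0 in both groups, by gene list, with called genes in red, other genes open and the list median as a black bar. Calls occur among the enzymes (3), the other members (2) and the retinal pigment epithelium list (4), and the medians run from -2.36 for the enzymes to 0.14 for the proton pump.

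Some genes listed for the retinal pigment epithelium, a cell type that holds melanosomes, fell too, and their part in the members' values was not tested. In the retinal pigment epithelium list 4 of 19 tested genes fell and none rose, against 0.332% of all tested genes called lower. At an unadjusted p under 0.05, 12 were lower and 0 higher, against 3.76% of all tested genes in the lower direction. The median log2 fold change was -0.87, and the summed level of the 22 matched genes of the list was 285 FPKM in wild-type and 177 FPKM in the knockdown. The genes that fell all serve the retinoid cycle: rlbp1b from 19.0 to 3.54 FPKM, rgra from 18.3 to 4.91 FPKM, rdh5 from 16.3 to 5.25 FPKM and rpe65a, the isomerase of the cycle, from 43.7 to 21.2 FPKM. The copy rlbp1a was at 5.45 and 2.56 FPKM and was not called. By direction alone 17 of the 19 were lower and 2 higher, neither of these 2 with a call. Of all tested genes above 0 in both groups 54.1% were lower. The 2 higher genes of the list were the other copy rpe65b, at 7.60 and 8.96 FPKM with a locus that overlaps another row, and rx3, at 13.7 and 19.3 FPKM. Retinoid cycle genes are known from pineal cells too, so the list is not exclusive to the eye. Otx2 was at 34.0 and 28.3 FPKM, the retinol receptor gene stra6 at 36.1 and 21.1 FPKM and the junction gene TJP1 (1 of 2) at 23.1 and 21.1 FPKM. Tfec was listed at 0 in both groups, on an unplaced scaffold, and mitfb was at 0.297 and 0.176 FPKM; neither was tested.

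None of 15 tested regulators of melanophores and other pigment cells was called. Over all tested genes 0.332% were called lower and 0.106% higher, so no call among 15 genes is near those shares. At an unadjusted p under 0.05, 3 of the regulators were lower and 1 higher, against 712 lower (3.76%) and 336 higher among all 18954 tested genes. By direction alone 13 of the 15 were lower and 2 higher, while 54.1% of all tested genes above 0 in both groups were lower. The median of the regulators was -0.45, and the 19 matched genes summed to 563 and 517 FPKM, of which hdac1 alone contributed 351 and 365 FPKM. Mitfa, the regulator that specifies melanophores and activates dct and tyrp1b, was at 3.42 and 2.44 FPKM, a log2 fold change of -0.49 (p = 0.204, from the authors' deposited table). The receptor gene kita, which melanophores need to migrate and survive, was at 2.01 and 1.37 FPKM. Tfap2e, which acts in melanophore differentiation, was the nearest to a call, at 16.1 and 7.17 FPKM (log2 fold change of -1.17, q = 0.0883, from the authors' deposited table). The crest regulators sox10 and foxd3 measured 8.84 and 6.85 FPKM for sox10 and 1.11 and 0.459 FPKM for foxd3, and tfap2a was at 16.1 and 14.4 FPKM. Sox9b was at 51.6 and 41.3 FPKM and lef1 at 47.0 and 27.8 FPKM.

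The other pigment cells of fish, yellow xanthophores and reflecting iridophores, use other pigments, and none of their 16 tested genes was called. Over all tested genes 0.332% were called lower and 0.106% higher, so no call among 16 genes is near those shares. The median of the xanthophore and iridophore list was -0.27, and its summed level was 892 and 670 FPKM. At an unadjusted p under 0.05, 5 of its genes were lower and 1 higher, against 712 lower (3.76%) and 336 higher among all 18954 tested genes. By direction alone 14 of the 16 were lower and 2 higher, while 54.1% of all tested genes above 0 in both groups were lower. Gch2, which makes the pteridine precursor of yellow pigment and is also active in young melanophores, was at 283 and 181 FPKM (log2 fold change of -0.65, q = 0.615, from the authors' deposited table). PTS, the next enzyme of that pathway, was at 156 and 92.9 FPKM. The purine synthesis genes paics and atic, which serve iridophores and dividing cells alike, measured 192 and 177 FPKM for paics and 77.8 and 71.3 FPKM for atic.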

How the data were processed

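RNA sequencing of 8 libraries (4 wild-type, 4 knockdown) was read from a table the authors deposited, with 1 FPKM value per gene and group. Per the submitters' processing notes, the build was Zv9 and the tools were Cuffdiff, TopHat2, Bowtie2, Trimmomatic 0.32, FastQC 0.10.0 and CASAVA 1.8.2; no settings, annotation or rule for technical replicates are stated in the labels. The deposited log2 fold change, test statistic score, p-value and q-value are the authors' own, per the file headers. Adjusting the deposited p by Benjamini and Hochberg over the 18954 tested rows gave the deposited q to within 5.2e-07. FPKM depends on the other RNAs sampled, and without library totals the depth is unknown and no counting error can be attached. No test was run on group values.

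The members and lists were chosen with earlier results of these data known. Of 180 list entries 158 were matched, 20 of them by gene identifier or by a symbol differing in case. List medians cover tested genes above 0 in both groups. Named were all members; of each further list the called genes, the 4 with the highest mean FPKM and a set of regulators and markers; and the 6 called genes nearest to the members' median fold. Alternatives were pseudocounts of 0.1 and 1, a minimum of 1 FPKM, TPM rescaling, centring, leaving out overlapping loci, and other thresholds. Calculations used Python 3.11.15 with pandas 2.3.3, tested on simulated data. Results of 1 gene outside the lists were left out and are not reported here.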

Additional observations from a re-analysis of the deposited data

How the results depend on the processing

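The members' median log2 fold change kept its direction under all 7 alternatives, from -2.08 to -0.93, as did those of the enzymes (-2.36 to -0.93) and of the other melanosome genes (-1.13 to -0.87). These directions could not have turned, so only the sizes are informative. Every member was chosen on this contrast and had a log2 fold change of -0.34 or lower, and the largest shift applied was 0.106. The minimum of 1 FPKM removed none of the 10 members. Without the called genes, an alternative chosen after seeing the data, the median of the members was -0.93 and that of the enzymes -0.93, which is tyr alone. The count of 5 called members became 0 at a deposited q under 0.01, because the smallest q is 0.0176, and 9 at an unadjusted p under 0.05. The median of melanosome biogenesis and transport turned from -0.10 to 0.0065 when rescaled to TPM, which adds 0.106 to every value. The other 62 values moved by less than 1.5 times as an unlogged fold change or as a count; for list medians near 0 this can be a large part of the log2 value, as for the general lysosome, from 0.08 to 0.19 when rescaled to TPM. No paired analysis was possible because the table holds group values without replicate numbers; for the same reason no library could be left out. Without known depth, no error can be given for low genes such as oca2.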

Other observations

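Genes around melanin synthesis that the lists did not hold were looked at after the calls were seen, 23 in all. The authors tested 19 of them and called none, which is near the shares of 0.332% called lower and 0.106% called higher over all tested genes. An unadjusted p under 0.05 was listed for 3, SLC24A2 (1 of 2) and SLC24A2 (2 of 2) in the lower direction and th in the higher. Among all 18954 tested genes, 712 had such a p in the lower direction and 336 in the higher. Genes that recycle tetrahydrobiopterin, a cofactor of amino acid hydroxylases, were not called, with pcbd1 at 38.1 FPKM in wild-type cells and 40.6 FPKM in knockdown cells, qdpra at 14.2 and 13.6 FPKM and qdprb1 at 15.7 and 16.1 FPKM. The copper transporter gene slc31a1, which supplies the metal that tyrosinase needs, was at 5.16 and 5.69 FPKM. The other tyrosine-oxidising enzyme, tyrosine hydroxylase (th), was at 1.27 and 2.58 FPKM, opposite in direction to tyr and without a call (q = 0.696, from the authors' deposited table). The precursor gene of the pigment hormone alpha-MSH, pomcb, was at 0.698 and 9.47 FPKM, a log2 fold change of 3.76 (p = 0.063, from the authors' deposited table), with a locus that overlaps another row. The other precursor copy, pomca, was at 0.130 and 0.0278 FPKM and was not tested. The receptor gene of this hormone, mc1r, which stands in the list of pigment cell regulators, was at 0.0469 and 0.0454 FPKM and was not tested.

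Of the relatives of the members 9 were tested and none was called, which is near the shares of 0.332% called lower and 0.106% called higher over all tested genes. An unadjusted p under 0.05 was listed for 2 of the 9, both lower, against 3.76% of all tested genes in the lower direction. Gpnmb, related to the pmel genes, was at 1.18 and 0.647 FPKM. In the exchanger family of slc24a5 the copies SLC24A2 (1 of 2) and SLC24A2 (2 of 2) measured 0.695 and 0.268 FPKM, respectively 1.47 and 0.82 FPKM, while SLC24A6 was at 1.66 and 1.81 FPKM. In the family of slc45a2, SLC45A1 was at 2.16 and 2.00 FPKM and slc45a4 at 7.14 and 8.17 FPKM, while SLC45A4 (2 of 2) was at 0.423 and 0.242 FPKM. The relatives of mitfa that were tested, tfe3a, tfe3b and tfeb, had log2 fold changes of 0.05, 0.06 and -0.20.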
